A study of Canis lupus familiaris with 6 samples.

Results

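The genes followed here act in phosphate handling and mineralization, and were read in healing dog jaw bone. They are the phosphatase gene ALPL, the phosphodiesterase genes ENPP1 and ENPP6, the pyrophosphate transport gene ANKH, the endopeptidase gene PHEX and the parathyroid hormone receptor gene PTH1R. These are 6 of the 15115 genes named on the array. Every probe set (a group of array probes read as 1 value) annotated to one of these symbols alone was used, which gave 13 of the 42860 probe sets in the deposited table. ENPP6 had 4 of them, ANKH 3, ALPL and PHEX 2 each, and ENPP1 and PTH1R 1 each. Of the 13, 9 passed a filter on the mean level, and each of the 6 genes kept at least 1.

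Holes of 4.5 mm diameter and 8 mm length were drilled in mandibles of beagle dogs aged 9 years, after 3 months of healing from premolar extraction. They were implanted with beta-TCP (beta-tricalcium phosphate, a resorbable calcium phosphate bone substitute) or, as control, left without it. The cylinder was taken out 4, 7 or 14 days later, and RNA was hybridised to an Affymetrix canine array. There were 6 groups of 1 array each, beta-TCP and control at days 4, 7 and 14. The sources used here give neither the number of dogs nor which specimens came from the same dog.

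Bone mineral forms when phosphate outweighs pyrophosphate, an inhibitor of crystal growth, in the matrix around osteoblasts. ENPP1 makes pyrophosphate from extracellular nucleotides and ANKH carries pyrophosphate and ATP out of the cell, while the alkaline phosphatase encoded by ALPL cleaves pyrophosphate to phosphate. ENPP6 is a choline phosphodiesterase, and in mice it acts with the phosphatase PHOSPHO1 in the release of phosphate inside matrix vesicles. PHEX, an endopeptidase of osteoblasts and osteocytes, cleaves matrix peptides that block mineral, and its loss causes phosphate wasting with raised FGF23. PTH1R is the receptor for parathyroid hormone and its related peptide on cells of the osteoblast lineage.

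Levels are given as the signal divided by the median of its array, so that 1 is the array's median probe set. Differences are on the scale log2(level + 1), which understates the change of low genes. With 1 array per group a difference on a single day has no spread between replicates, and neither it nor an order of levels can be tested. "At least 2-fold" means a difference of at least 1 on that scale. The array labelled beta-TCP day 14 stood apart. Its Spearman correlation with each other array lay between 0.724 and 0.779, while the other 5 correlated among themselves at 0.834 to 0.905. Both day 14 arrays were deposited on another scale than those of days 4 and 7, so a difference between day 14 and an earlier day cannot be told apart from that processing. The arrays are of bulk tissue, in which fewer cells of a type and less RNA per cell cannot be told apart.

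**Figure D1:**
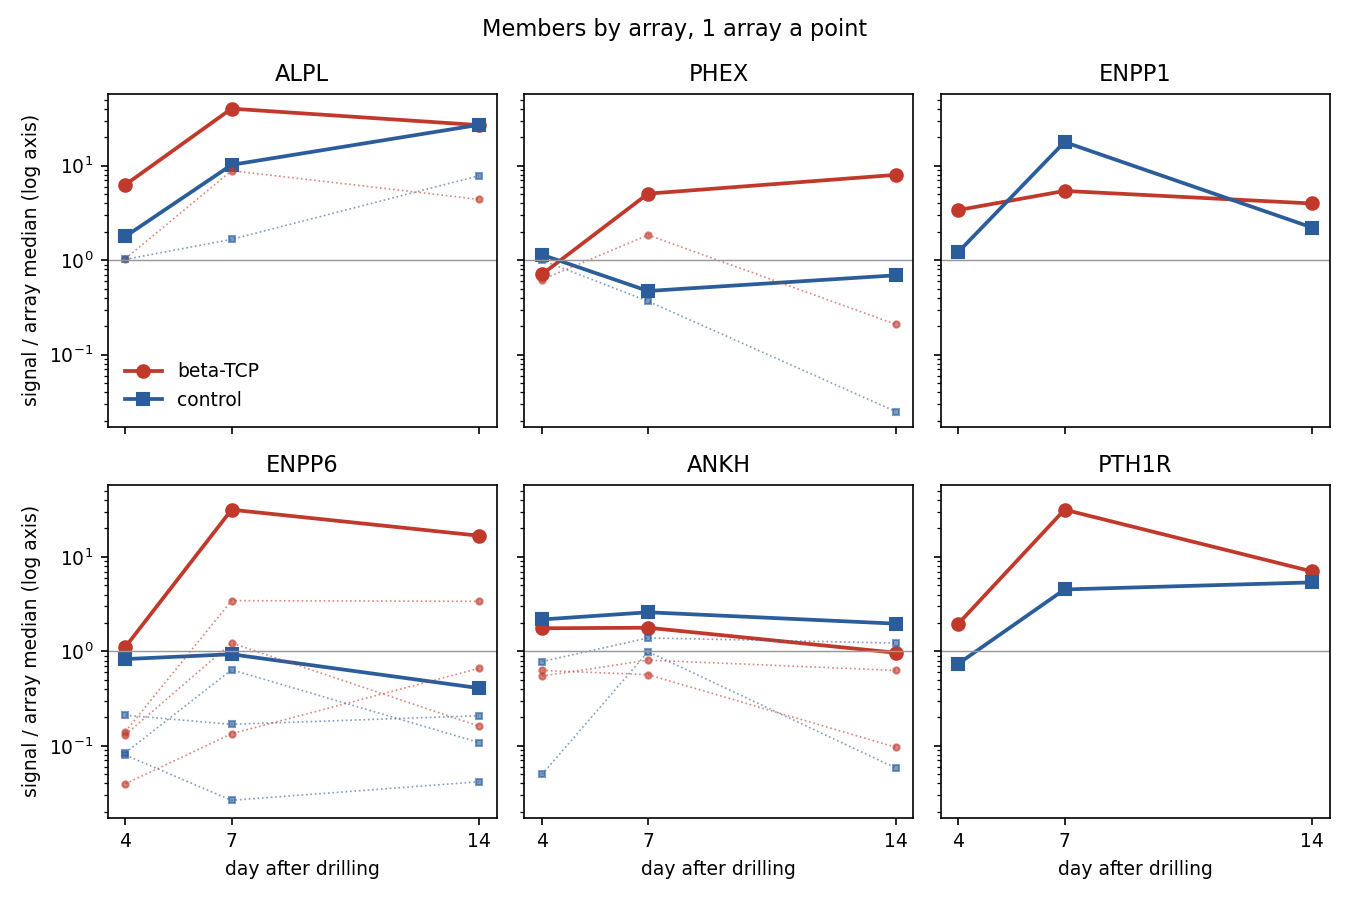
Level of each gene (signal divided by the array median, log axis) at days 4, 7 and 14 on the beta-TCP arrays (red circles) and control arrays (blue squares), 1 array a point. Solid lines are the probe set with the highest mean and dotted lines the gene's other probe sets, and the grey line marks the array median. ENPP6 with beta-TCP reads 31.6 at day 7 and 16.8 at day 14 on the solid line, and stays below 1 on the control arrays.

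ENPP6 had the largest differences of the 6 genes at days 7 and 14, though not at day 4. Its probe set Cfa.6996.1.A1_at read 1.12, 31.6 and 16.8 on the beta-TCP arrays at days 4, 7 and 14, against 0.829, 0.932 and 0.408 on the control arrays. It therefore stood near or below the array median on 4 arrays and far above it on the beta-TCP arrays of days 7 and 14. The log2 differences were 0.21, 4.08 and 3.66. Among all 42680 probe sets compared, this was the difference ranked 3 from the highest at day 7 and 2 at day 14. The related probe set Cfa.6996.1.A1_s_at read 0.142, 3.45 and 3.39 with beta-TCP, against 0.0846, 0.638 and 0.108 without. Its differences of 1.44 at day 7 and 1.99 at day 14 had the same sign on both days. The remaining pair of probe sets read low throughout and fell under the filter. CfaAffx.12520.1.S1_at reached 1.23 with beta-TCP at day 7, against 0.169 in the control, and at day 14 it read 0.161 and 0.208. Cfa.12301.1.A1_at reached no more than 0.661 on any array, with beta-TCP at day 14. The higher day 14 reading thus appeared on 3 of the 4 ENPP6 probe sets, those whose name starts with Cfa alone, and not on the one whose name starts with CfaAffx.

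PHEX was also higher with beta-TCP at days 7 and 14 and not at day 4. Cfa.7899.1.A1_at read 0.709, 5.07 and 8.00 on the beta-TCP arrays, against 1.14, 0.472 and 0.692 on the control arrays. The differences were -0.33, 2.04 and 2.41, and the day 14 difference ranked 20 from the highest of all probe sets. The control arrays stayed near or below the array median on every day. The other probe set, CfaAffx.20627.1.S1_at, read 0.623, 1.85 and 0.210 with beta-TCP, against 0.9998, 0.367 and 0.0250 in the controls. It was higher by 1.06 at day 7 and by 0.24 at day 14, where both arrays lay well under the array median. For genes read on both kinds of name, the beta-TCP minus control difference on CfaAffx probe sets minus that on Cfa probe sets had a median of 0.04, 0.16 and -0.59 at days 4, 7 and 14 (1639 genes), so that it was lower on CfaAffx at day 14 alone. The part of this shift in the day 14 readings of ENPP6 and PHEX was not tested.

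ALPL, whose product marks osteoblasts that are starting to mineralize, was higher with beta-TCP at day 7 on both probe sets and at day 14 on neither. CfaAffx.22870.1.S1_s_at read 6.31, 40.2 and 26.9 on the beta-TCP arrays at days 4, 7 and 14, against 1.79, 10.2 and 27.1 on the control arrays. The differences were 1.39, 1.88 and -0.01, so both day 14 arrays read alike on this scale. With quantile normalization the day 14 difference was 0.41. Cfa.13804.1.A1_at read 1.04, 8.86 and 4.40 with beta-TCP, against 1.02, 1.66 and 7.83 without, with differences of 0.01, 1.89 and -0.71. Both probe sets peaked at day 7 with beta-TCP and were highest at day 14 in the controls. They differed at day 4, where only the first was higher. ALPL is also a gene of human neutrophils. The 5 neutrophil markers measured here had summed levels of 971, 973 and 106 on the beta-TCP arrays, against 1820, 1443 and 305 on the control arrays. Those sums were lower with beta-TCP on every day, and the part of neutrophils in the ALPL readings was not tested.

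PTH1R was higher with beta-TCP above all at day 7. Cfa.3643.1.S1_s_at, its single probe set, read 1.97, 31.6 and 7.02 on the beta-TCP arrays, against 0.743, 4.53 and 5.38 on the control arrays. The differences were 0.77, 2.56 and 0.33, and the day 7 difference ranked 38 from the highest. The beta-TCP array of day 7 was the highest of all 6, with the other 5 between 0.743 and 7.02.

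ENPP1 and ANKH were not higher with beta-TCP at day 7, and they did not share a pattern over the days. ENPP1, on the single probe set CfaAffx.980.1.S1_at, read 3.40, 5.41 and 3.98 on the beta-TCP arrays, against 1.23, 17.8 and 2.22 on the control arrays. The control array of day 7 stood above all others, and the differences were 0.98, -1.55 and 0.63. ENPP1 was thus the only one of the 6 genes that was at least 2-fold lower with beta-TCP at day 7, and its day 7 difference ranked 139 from the lowest. ANKH differed little. Cfa.17600.1.S1_s_at read 1.76, 1.78 and 0.968 with beta-TCP, against 2.18, 2.59 and 1.97 without, and the differences were -0.20, -0.37 and -0.59. CfaAffx.22070.1.S1_at gave -0.20, -0.40 and -0.45, from levels of 0.547 to 0.808 with beta-TCP and 0.780 to 1.39 without. Both were lower on all 3 days, the first of them also under the other pseudocounts and scalings, and none reached 2-fold. For comparison, 13.2% of all probe sets were lower on all 3 days, and 10.3% were higher, as were PTH1R and 2 of ENPP6. The third ANKH probe set stayed under 1 on every array and had no constant sign.

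**Figure D2:**
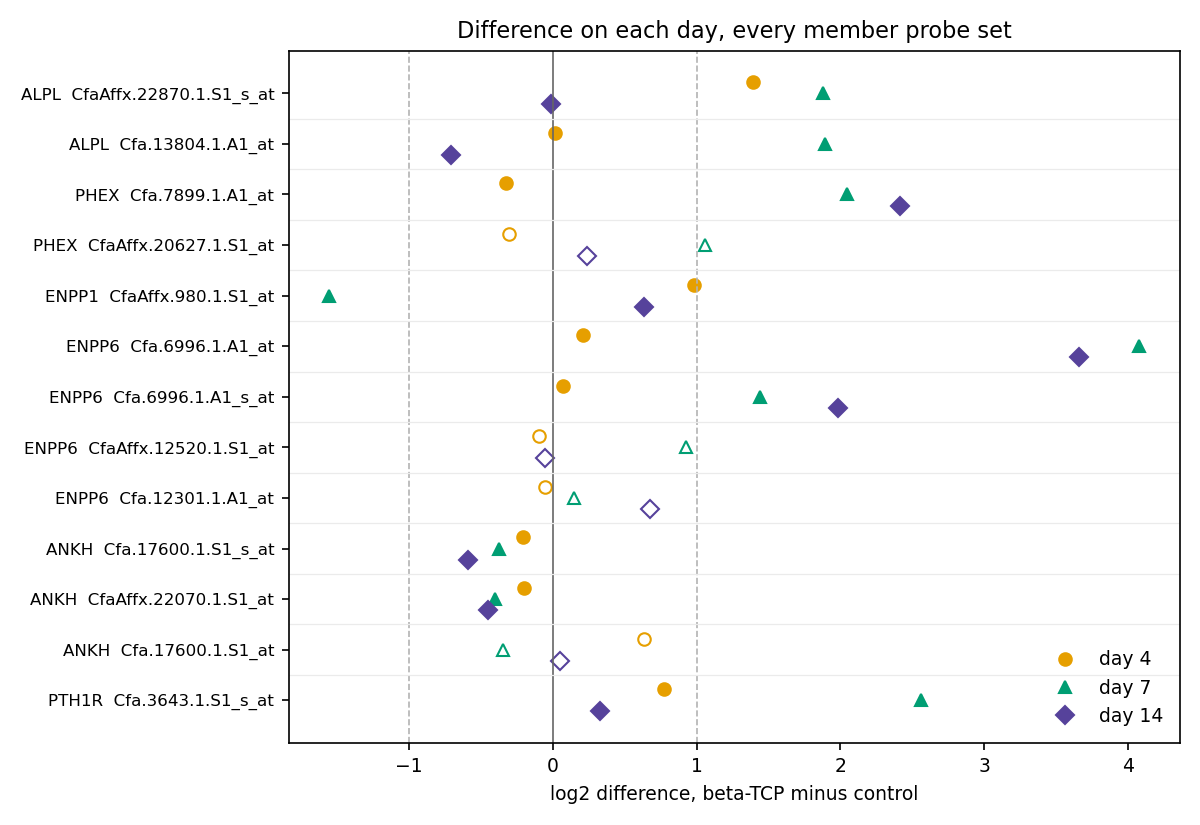
Beta-TCP minus control difference (log2 units) for each of the 13 probe sets at day 4 (circles), day 7 (triangles) and day 14 (diamonds). Filled symbols passed the filter on the mean level and open symbols did not, and dashed lines mark a 2-fold difference. Day 7 has 7 probe sets to the right of the upper line and ENPP1 left of the lower one.

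Counted over all 13 probe sets, 1 was at least 2-fold higher with beta-TCP at day 4, where 2.66% of all probe sets were, and 0 were lower, where 2.06% of all were. At day 7, 7 were higher, against 2.05% of all probe sets, and 1 was lower, against 1.97%. At day 14, 3 were higher, against 3.76% of all, and 0 lower, against 10.1%. The median difference of the 13 was 0.01 at day 4, 1.06 at day 7 and 0.24 at day 14, and that of all 42680 was 0.04, -0.02 and -0.05 (0.15, -0.04 and -0.22 for those above the filter). Probe sets of 1 gene share their transcript, so these are not 13 separate genes. Taken as 1 probe set per gene, 4 of 6 genes were at least 2-fold higher at day 7, against 2.21% of 15112 genes. The 3 probe sets that were at least 2-fold higher at both day 7 and day 14 belong to ENPP6 and PHEX, and 0.18% of all probe sets did the same.

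**Figure D3:**
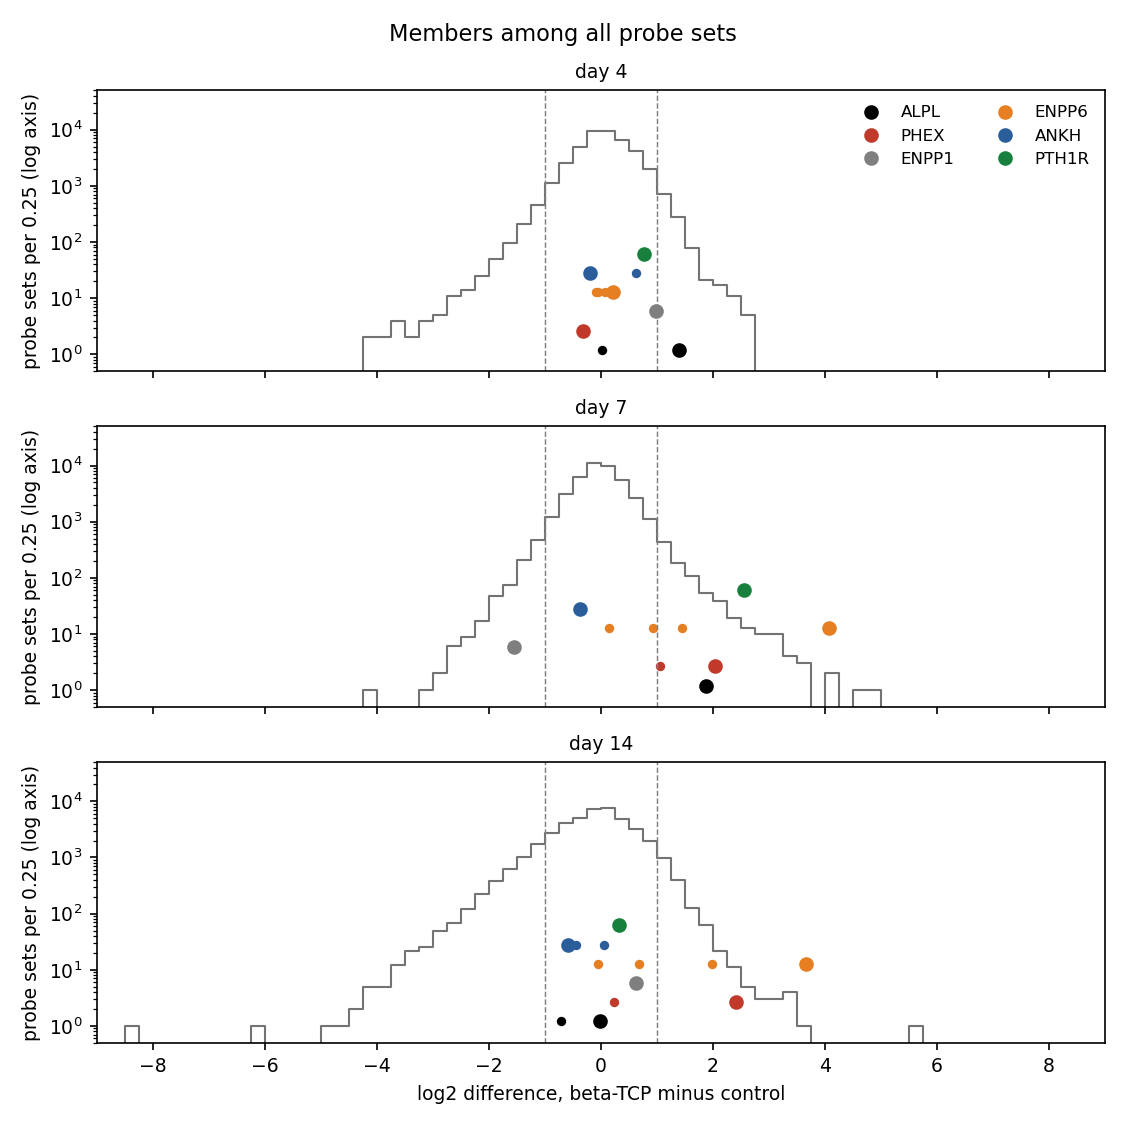
Number of probe sets (log axis) per 0.25 log2 units of beta-TCP minus control difference at days 4, 7 and 14, for all 42680 probe sets (grey line). Coloured points mark the 13 member probe sets on the same axis, large for the probe set with the highest mean of each gene, and their height carries no value. ENPP6 lies at 4.08 and 3.66 at days 7 and 14, near the upper end of all probe sets.

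Averaged over the 3 days, no member passed the test. All 6 arrays entered 1 limma model with a term for day and a term for treatment, and two-sided p-values were adjusted by Benjamini-Hochberg over the 25608 probe sets above the filter. In limma's fit 0 of 25608 probe sets passed an adjusted p of 0.05 (0% higher and 0% lower), and 1057 had an unadjusted p under 0.05. ENPP6 (Cfa.6996.1.A1_at) had the largest average among the members, 2.65 ± 0.66 (SE, limma's adjusted p = 0.652), higher on 3 of 3 days. PHEX averaged 1.38 ± 0.50, higher on 2 of 3 days, PTH1R 1.22 ± 0.44, higher on 3 of 3, and ALPL 1.09 ± 0.40, higher on 2 of 3, all with an adjusted p of 1 by limma. The other ALPL probe set averaged 0.40 ± 0.47, with the same adjusted p by limma. ENPP1 averaged 0.02 ± 0.48 and ANKH -0.39 ± 0.29, also with an adjusted p of 1. Among the 9 member probe sets tested, 5, all higher, had an unadjusted p under 0.05, as had 1.26% of all probe sets on the higher side. The filter used the mean of all 6 arrays, so a probe set could pass through its beta-TCP arrays. ENPP6 Cfa.6996.1.A1_s_at, 1 of the 5, had a mean log2 level of 1.49 with beta-TCP and 0.33 without. The count also holds more than 1 probe set of ENPP6, and is given as a description. The residual mixes differences between days, specimens and arrays.

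Which days entered decided the calls. Without the day 4 pair, 3 probe sets passed, all higher, which is 0.0117% of those tested. One of them was ENPP6, at 3.87 ± 0.43 (adjusted p = 0.0253, limma). Without the day 14 pair, whose beta-TCP array stood apart, 61 were higher (0.238%) and 47 lower. ALPL (CfaAffx.22870.1.S1_s_at) was among the higher at 1.63 ± 0.31 (adjusted p = 0.0353, limma). The other ALPL probe set had 0.95 ± 0.39 (adjusted p = 0.383, limma), and PTH1R missed the threshold at 1.67 ± 0.38 (adjusted p = 0.0656, limma). Without the day 7 pair 0 passed, with 712 at an unadjusted p under 0.05. The day 4 pair is the one on which ENPP6 differed least (0.21). Each of these fits has 1 residual degree of freedom. Their p-values therefore rest mainly on the variance that limma shares over all probe sets. That share had 10.07, 15.15 and 15.14 prior degrees of freedom without the day 4, day 7 and day 14 pair. Whether the beta-TCP effect differed between days could not be tested with 1 array per day and treatment.

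The genes also differed in their course over time. On the beta-TCP arrays 6 of the 13 probe sets, of ALPL, PHEX, ENPP6 and PTH1R, were at least 2-fold higher at day 7 than at day 4, against 2.98% of all probe sets, and 0 were lower, against 1.71%. On the control arrays 3 were higher, ALPL, ENPP1 and PTH1R, against 8.4% of all, and 0 lower, against 3.75%. ENPP6 differed by 3.95 between days 7 and 4 on the beta-TCP arrays and by 0.08 on the control arrays. PHEX differed by 1.83 and -0.54, and PTH1R by 3.46 and 1.66. ENPP1 differed by 0.54 on the beta-TCP arrays and by 3.08 on the control arrays. From day 7 to day 14, PTH1R was lower by 2.03 with beta-TCP (-2.03) and differed by 0.21 in the controls, while ENPP1 differed by -0.36 and -2.55. ALPL was 0.56 lower with beta-TCP (-0.56) and 1.33 higher in the controls on its first probe set. Over these 7 days 0 of the 13 probe sets were at least 2-fold higher and 2 lower with beta-TCP, against 4.32% and 12.1% of all. In the controls 2 were higher and 1 lower, against 2.72% and 4.16%. Between days 14 and 4, 6 were higher and 0 lower with beta-TCP, against 6.61% and 13% of all, and in the controls 3 were higher and 0 lower, against 9.32% and 6.03%.

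For ALPL a difference between days 14 and 4 passed the test, although day 14 carries the other deposited scale. In the additive limma fit, with beta-TCP and control as the 2 arrays of a day, CfaAffx.22870.1.S1_s_at was higher at day 14 by 2.63 ± 0.48 (SE, adjusted p = 0.0286, limma), higher in both treatments. It was the 1 of 9 member probe sets that passed, where 0.773% of all passed as higher and 2.5% as lower. The other ALPL probe set had 1.77 ± 0.58 (adjusted p = 0.128, limma). The ALPL call was lost with a pseudocount of 0.25 (adjusted p = 0.0614, limma), with a pseudocount of 4 (0.1) and with no filter (0.135). For day 7 minus day 4, 0 of 25608 probe sets passed limma's test, with 2814 at an unadjusted p under 0.05. PTH1R had 2.56 ± 0.53 and ALPL 2.25 ± 0.48 (adjusted p = 0.151 and 0.153, limma). In a fit without the day 14 pair, added after the data had been seen, 6 of the 9 member probe sets passed for day 7 minus day 4, all higher, where 5.05% of all passed as higher. They were both of ALPL, both tested of ENPP6, ENPP1 and PTH1R, with averages of 1.28 to 2.56 and adjusted p between 0.000578 and 0.0464 by limma. These averages do not stand for both treatments alike, and the fit has 1 residual degree of freedom. ENPP6 (Cfa.6996.1.A1_at) differed by 3.95 with beta-TCP and 0.08 in the controls, and ENPP1 by 0.54 and 3.08. Only ALPL CfaAffx.22870.1.S1_s_at (2.50 and 2.01) and PTH1R (3.46 and 1.66) were at least 2-fold higher in both. Between days 14 and 7 none of the 9 passed, where 0.00391% of all passed as higher and 0.00781% as lower.

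Genes with a profile over the 6 arrays most like that of each member were named by Pearson's r, among 1475 genes above the filter that ranged over at least 2 log2 units. With 6 arrays and so many genes high values are common, and r is given as a description. The genes were picked for this likeness, so sharing a member's high arrays is no separate result. ENPP6 was closest to KCNK2 (r = 0.990), a potassium channel gene, MEPE (0.990), an osteocyte matrix gene, and NPY (0.983), which encodes neuropeptide Y. PHEX was closest to SAMD11 (0.963), NPY (0.962) and MEPE (0.955), so NPY and MEPE stood beside both. Profiles of ENPP6 and PHEX themselves correlated at 0.936. MEPE read 0.0472, 7.64 and 5.52 on the beta-TCP arrays, against 0.0730, 0.0659 and 0.150 on the control arrays. ALPL was closest to SEPTIN4 (0.993), the transcription factor gene EBF1 (0.991) and CCDC3 (0.987), and 127 genes reached an r above 0.9 with it. PTH1R was closest to the bone morphogenetic protein gene BMP6 (0.978), ANO3 (0.976) and NDNF (0.970). ENPP1 was closest to ENDOG (0.978), KCNJ8 (0.970) and NT5E (0.968), the ectonucleotidase gene that makes adenosine from AMP. NT5E read 4.76, 9.33 and 4.34 with beta-TCP, against 3.08, 22.8 and 3.68 without, with the control array of day 7 highest as for ENPP1. Of the other NT5E probe sets, 1 more was above the filter, and it differed by only -0.18 at day 7. ANKH was closest to SLC2A6 (0.975), RIN3 (0.967) and TRAF3IP2 (0.966).

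Other genes of these pathways, taken from 6 lists and read on the probe set with the highest mean, did not move as a body. Of 75 measured genes, at day 7 with beta-TCP 5 were higher by 2-fold or more and 7 lower, where 2.21% and 2.57% of 15112 genes tested so were. The counts were 3 and 5 at day 4 (3.22% and 2.43% of genes), and 5 and 10 at day 14 (3.65% and 11% of genes). No gene of these lists passed the additive limma fit (0 of the 56 above the filter). In that fit 8 had an unadjusted p under 0.05, as had 4.13% of all 25608 probe sets tested.

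Among mineral-binding and vesicle genes (10 of 12 measured), 3 were higher by 2-fold or more at day 7 and 0 lower. Of all 15112 genes, 2.21% were higher and 2.57% lower, and the list's median difference was 0.15. They were IBSP (2.16), BGLAP (1.85) and SMPD3. Bone sialoprotein, encoded by IBSP, nucleates mineral, and it read 31.9, 251 and 38.7 with beta-TCP, against 4.80, 55.3 and 13.1 without. IBSP was at least 2-fold higher on all 3 days, with an average of 2.05 ± 0.32 (SE, limma's adjusted p = 0.582). Osteocalcin, encoded by BGLAP, read 0.157, 4.95 and 3.03, against 0.755, 0.653 and 0.225, and its other probe set differed by 1.82 at day 7 and 1.71 at day 14. SMPD3, a sphingomyelinase gene named here after its values were seen, read 5.53 on the beta-TCP array of day 7 and at most 0.275 on any other array. It fell under the filter on the mean level. PHOSPHO1, the phosphatase that acts beside ENPP6 in mice, stayed under 1 on all 6 arrays and differed by -0.67, 0.24 and 0.88.

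Among phosphate transport and phosphate hormone genes (15 of 16 measured), 1 was at least 2-fold higher at day 7, MEPE (3.02), and 1 lower. The cell surface phosphate transporter genes SLC20A1 and SLC20A2 differed by -0.61 and 0.05 at day 7. SLC20A1 was lower at day 14 (-1.14), from 2.06 with beta-TCP against 5.73 without. DMP1, an osteocyte matrix gene, differed by -0.30, 0.47 and 0.19. FGF23, the phosphate hormone gene whose protein is raised when PHEX is lost, read at most 1.32 on any array. In the pyrophosphate and nucleotide list (13 of 14 measured), 0 genes were at least 2-fold higher on any day. At least 2-fold lower were 0 at day 4, 2 at day 7 and 2 at day 14. They were NT5E (-1.20) and ADORA2A at day 7, and PPA1 (-1.47) and ADORA2A at day 14. For all 15112 genes the shares were 3.22%, 2.21% and 3.65% higher at days 4, 7 and 14, and 2.43%, 2.57% and 11% lower. ABCC6, a transporter behind nucleotide release, read at most 0.419 on any array. ADORA2A, an adenosine receptor gene, was lower on all 3 days at -0.53, -1.29 and -1.86. In the list of other ENPP and alkaline phosphatase genes (6 of 6 measured), ENPP2, which encodes autotaxin, read 28.3, 46.1 and 18.8 with beta-TCP, against 16.9, 99.8 and 16.6 without. Like ENPP1 it was lower at day 7 (-1.10), although 1 of its 3 probe sets differed by only 0.03.

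On the PTH side, PTHLH, the gene of the related peptide that also binds PTH1R, read 5.79, 18.3 and 3.66 with beta-TCP, against 27.0, 8.73 and 10.3 without. It was lower at days 4 and 14 (-2.04 and -1.28) and higher at day 7 (0.99). PTHLH is also expressed by epithelium. All 6 stratified epithelium markers measured were at least 2-fold lower with beta-TCP at day 4, with summed levels of 5.87, 13.1 and 3.65 on the beta-TCP arrays, against 87.7, 16.4 and 3.13 on the control arrays. Their part in the PTHLH reading at day 4 was not tested. GNAS, the G protein gene through which PTH1R raises cyclic AMP, differed by 1.26, 0.04 and -1.06, and its 4 probe sets disagreed in sign on each day. RGS2, an inhibitor of G protein signalling that is induced by PTH in osteoblasts, read 145, 172 and 96.9 with beta-TCP, against 401, 379 and 276 without. RGS2 was at least 2-fold lower on all 3 days, at -1.46, -1.14 and -1.50, and its other probe sets had the same sign. Its average was -1.37 ± 0.29 (SE, limma's adjusted p = 0.582). Of 12 genes responsive to PTH that were measured, 1 was higher by 2-fold or more at day 7 and 2 were lower. At day 4, 0 were higher and 3 lower, and at day 14, 1 was higher and 1 lower. Of 19 PTH receptor ligand and signalling genes measured, 1, 0 and 0 were higher and 2, 1 and 5 lower at days 4, 7 and 14. Of all 15112 genes, 3.22%, 2.21% and 3.65% were higher by 2-fold or more on these days, and 2.43%, 2.57% and 11% were lower.

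**Figure D4:**
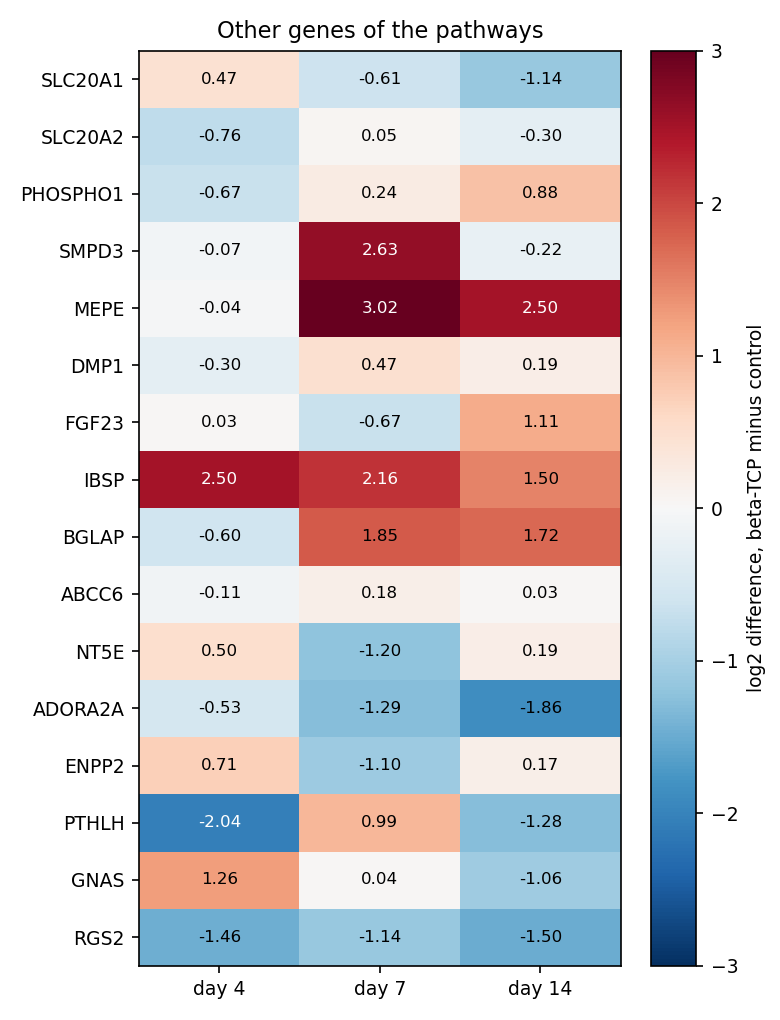
Beta-TCP minus control difference (log2 units, number and colour) at days 4, 7 and 14 for 16 other genes of the mineralization, phosphate, pyrophosphate and PTH pathways. MEPE and BGLAP are higher at days 7 and 14, IBSP is higher on all 3 days, and RGS2 is lower on all 3.

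Markers of the cells that could carry these genes were read beside them, on the probe set of each with the highest mean. For comparison, 3.22%, 2.21% and 3.65% of 15112 genes were at least 2-fold higher at days 4, 7 and 14, and 2.43%, 2.57% and 11% lower. Osteoblast markers (7 of 8 measured) had 3 genes higher by 2-fold or more at day 7 and 0 lower, OMD at 1.54 beside IBSP and BGLAP, while COL1A1 and COL1A2 differed by 0.10 and -0.21. RUNX2 read 1.29 to 2.02 on all arrays. Of 5 osteocyte markers, MEPE was higher at days 7 and 14 (above), FGF23 was higher at day 14 (1.11), and PDPN was lower at day 7 (-1.42), at 154 with beta-TCP against 415 without. DMP1 and SOST differed by less than 2-fold on each day, and the highest readings of DMP1, SOST and FGF23 were 2.88, 1.37 and 1.32. Chondrocyte markers (7 of 7 measured) had 3 genes at least 2-fold higher at day 7, ACAN (2.23), CNMD (1.83) and COL9A1 (1.03). Their summed level was 9.68, 37.9 and 19.6 with beta-TCP, against 3.61, 8.82 and 20.6 without, and COL2A1 stayed at or under 0.661 on every array. Osteoclast markers (5 of 7 measured) had 3 genes at least 2-fold lower at day 7 and 3 higher at day 14, and of 5 endothelial markers 1 was higher and 1 lower at day 4, 1 lower at day 7 and 2 higher at day 14. Macrophage markers (5 of 5 measured) had 3 genes at least 2-fold lower at day 7, and at day 14 CD68 was higher (1.59) while MARCO (-3.39) and CD163 (-2.03) were lower. Their summed level was 166, 211 and 244 with beta-TCP, against 220, 454 and 167 without. Schwann cell and oligodendrocyte markers (3 of 5 measured) were read because ENPP6 is known from oligodendrocytes. Their summed levels were 2.07, 3.21 and 6.90 with beta-TCP, against 2.96, 3.28 and 2.73 without. At day 14, 1 of them was at least 2-fold higher, MBP (2.13), at 4.63 with beta-TCP against 0.283 without. SOX10 stayed under 1. Skeletal muscle markers (5 of 6 measured) had no gene at least 2-fold different on any day on the probe set used, although another probe set of the muscle actin gene ACTA1 differed by -2.72 at day 4 and -1.15 at day 7. The part of the cell types whose markers moved in the readings of the 6 genes was not tested.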

How the data were processed

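Per the labels' protocols, biotinylated aRNA was prepared from 100 ng of total RNA of each specimen for an Affymetrix array. For the software and scaling behind the table, nothing was given in the sources used here. Read from the values, the authors deposited a signal divided by the array median for days 4 and 7 (minimum 0.01) and an undivided intensity for day 14 (medians 6.2 with beta-TCP and 12.0 without).

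Each array was divided by its median over 42860 probe sets and log2(value + 1) taken. Left out of all counts and fits were 90 pairs of probe sets (180), _a_at with _at: of 37 pairs over 2 log2 units apart at days 4 and 7, 35 lay the other way round on both day 14 arrays. No member is among them. The filter kept 25608 probe sets, with a mean at or above the 40th percentile. Genes came from a platform annotation table, and by gene ID 4 of the 6 members matched the RefSeq gene table, ENPP1 and PHEX matching by symbol only. limma 3.58.1 in R 4.3.3 fitted day and treatment (2 residual degrees of freedom). P-values measure only the spread between these arrays, and their number limits the precision. On simulated data with 50 changed probe sets per size, among 25608, changes of 1, 2, 3 and 4 log2 units were tried. The fit called 2%, 46%, 96% and 100% of them, in that order, with 6 false calls. How often it calls a difference that varies between days, as for ENPP6 (0.21, 4.08 and 3.66 at days 4, 7 and 14), was not tested.

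Named genes are the 6 members, the 3 genes closest to each in profile, list genes at least 2-fold different one way on 2 or more days, and a set of key pathway genes. SMPD3, and genes given as members of a list or count, were added after their values were seen. The members and lists were chosen with earlier results of these data known. Alternatives were the pseudocount, the scaling, the filter, the probe set type, 1 probe set per gene and leaving out a day's pair.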

Additional observations from a re-analysis of the deposited data

Results flagged for a closer look

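Some members had differences of opposite sign on different days, which were not tested because each day and treatment holds 1 array. The beta-TCP minus control difference of ENPP1 was lower at day 7 than at day 4 by 2.54 log2 units (-2.54), and higher at day 14 than at day 7 by 2.185. That of PHEX (Cfa.7899.1.A1_at) was higher by 2.37 at day 7 and by 2.74 at day 14 than at day 4. For ALPL, CfaAffx.22870.1.S1_s_at changed by -1.40 between days 4 and 14 and by -1.89 between days 7 and 14, and Cfa.13804.1.A1_at by -2.60 between days 7 and 14. The day 14 difference of the first ALPL probe set is close to 0 (-0.01), and with quantile normalization it is 0.41. With 1 array per group, no group was large enough to look for a single outlying array.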

How the results depend on the processing

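No paired analysis was possible by replicate number because each group holds 1 array, but the term for day in the model already sets beta-TCP against control within each day. The alternatives gave 132 counts and 224 values of single genes. Of the counts, 97 were equal to the main count or near it by ratio. Of the values, 208 kept their direction and side of the threshold, and no called value turned its sign. Differences on a day under the probe set type and 1 probe set per gene are the main values themselves, so they could not change. At least 2-fold higher at day 4 were 4 member probe sets with a pseudocount of 0.25, and 0 with a pseudocount of 4 or with Cfa probe sets alone. At day 7, 2 were higher on CfaAffx probe sets alone and 4 of 6 with 1 probe set per gene, and at day 14, 0 on CfaAffx alone. On Cfa alone 0 were lower at day 7, since ENPP1 is read on CfaAffx. With a pseudocount of 0.25, 5 differed between days 14 and 7 with beta-TCP, 6 between days 7 and 4 in the controls and 6 between days 14 and 7 in the controls. With a pseudocount of 4 there was 1 for days 14 and 7 and 3 for days 14 and 4 with beta-TCP. In limma's fit the average effect called 3 probe sets without the day 4 pair (1 member), 108 without the day 14 pair (1 member) and 0 under the other alternatives. Day 14 minus day 4 called 837 probe sets, and 323, 23, 1419, 1839, 518 and 0 with a pseudocount of 0.25 or 4, quantile normalization, equal 90th percentiles, 1 probe set per gene and no filter. The member call (ALPL) became 0 with either pseudocount and with no filter. Day 7 minus day 4 called 43 with quantile normalization, 75 with equal 90th percentiles, 50 with 1 probe set per gene and 1880 (6 members) without the day 14 pair. Day 14 minus day 7 called 3, and 15 with quantile normalization, 22 with equal 90th percentiles and 0 with a pseudocount of 4, 1 probe set per gene or no filter. Beyond fewer features or arrays, the cause was not tested. ENPP6 differed by 2.85 to 4.75 at day 7 and by 2.24 to 4.69 at day 14, PTH1R by 2.06 to 2.74 at day 7, and PHEX by 1.02 to 2.88 at day 7 over the alternatives. Readings under the array median may be near background, which the deposited table does not mark.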
